A study of Mus musculus with 12 samples.

Results

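Ganglion cells and horizontal cells of the mouse retina were followed through 10 genes commonly used to recognise them. The 10 were taken by gene symbol from every count table, where each symbol stood on 1 of the 53090 gene rows. They were the neurofilament genes Nefl, Nefm and Nefh, the further ganglion cell markers Thy1, Slc17a6 and Rbpms, and the horizontal cell markers Calb1, Onecut1, Onecut2 and Lhx1. The libraries hold retinal RNA from C57BL/6 mice that was pulled down with ribosomes through an HA tag, and the labels give retinal pericytes as the cell type. All the pups, at both ages, had received tamoxifen on postnatal days 1 and 2, and retinas came from postnatal day 3 (P3, 6 libraries) or postnatal day 9 (P9, 6 libraries). Neither the genotype, the Cre driver nor the tagged allele is named in the sources used here, and no library without pull-down was analysed here. A library taken at P9 therefore also lies further from the tamoxifen than one taken at P3, and age and time since tamoxifen cannot be told apart.

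Ganglion cells are the output neurons of the retina, whose axons form the optic nerve. They are among the first retinal neurons to be born, and before birth their fate is set by factors such as Atoh7 and the Pou4f (Brn3) family. Their long axons are filled with neurofilaments, which assemble from a light (Nefl), a medium (Nefm) and a heavy (Nefh) subunit, with alpha-internexin (Ina) as a further partner, and the heavy subunit is known for entering the filaments late, as axons mature. Horizontal cells are interneurons that feed back onto photoreceptors; they too are born early, under Foxn4, Ptf1a, Onecut1 and Onecut2, take their place with the help of Lhx1, and contain the calcium-binding protein calbindin (Calb1). None of these markers belongs to a single cell type: the Onecut factors are also made in young ganglion cells, calbindin and Thy1 in amacrine cells, neurofilaments in horizontal cells, and Rbpms in smooth muscle.

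Library totals ran from 26839599 to 37776172 expected counts. Levels are given as counts per total, scaled by TMM, in the unit CPM, and a level of 1 CPM rested on 25.8 to 38.5 counts. All 10 genes of a pericyte marker list were detected in every library and all 10 rose at P9, where 26.1% of all tested genes rose. Whether pericyte RNA was enriched by the pull-down was not tested. Markers of neurons were present as well. At P3 the pericyte list summed to 309 to 1286 CPM and a list of 13 amacrine markers to 1727 to 2340 CPM. At P9 the sums were 2781 to 6299 CPM for pericyte and 1409 to 1556 CPM for amacrine markers. The labels tie no library to an animal or litter, and the p-values below measure the spread between libraries, part of which may be technical. On the first principal component, the libraries closest to the opposite age were P3 replicates 4 and 5 and P9 replicate 3 (-45.6, -46.0 and 46.7, against -92.5 to -69.0 for the other P3 and 63.7 to 80.0 for the other P9 libraries).

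At P9, 8 of the 10 markers had risen, 1 had fallen and 1 did not pass the test. All 6 genes of the ganglion cell side rose, from 1.31-fold (Rbpms) to 5.74-fold (Nefh). The 4 horizontal cell markers divided: Calb1 rose 7.59-fold and Lhx1 1.85-fold, Onecut2 was 2.27-fold lower, and Onecut1 did not pass. A gene was called where edgeR's quasi-likelihood test gave an adjusted p under 0.05. Change was common in these libraries, with 51.8% of 18638 tested genes called, 26.1% rising and 25.6% falling, so a single call says little. Those shares stand beside 9 of 10 called and 8 of 10 rising, and beside the counts of the other lists. The markers were chosen with earlier results of these data known, so their counts are not independent evidence. The median log2 fold change was 0.90 over the 10 markers and -0.0018 over all tested genes. The P9 values lay above every P3 value for 7 markers and below every P3 value for 1, against 16.3% and 15.4% of all genes, or 31.7% in either direction. A rise of at least 2-fold was called for 3 markers (Nefh, Thy1 and Calb1) and a fall of that size for 1 (Onecut2), against 10% and 8.01% of all genes. In bulk pull-down samples such as these, more cells of a type, more RNA per cell and more carry-over in the pull-down cannot be told apart.

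**Figure D1:**
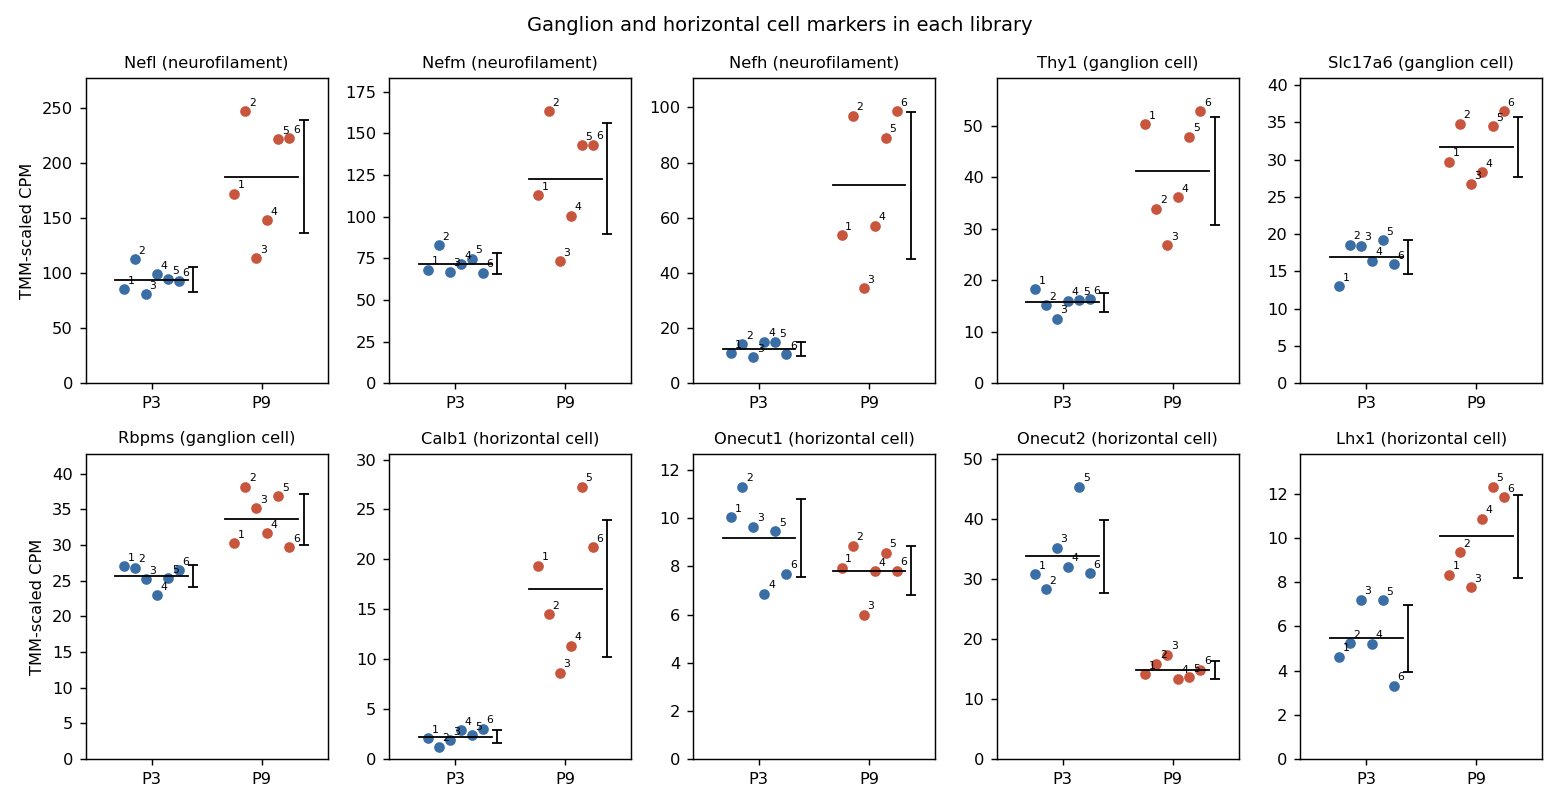
Each panel shows 1 marker, with TMM-scaled CPM on the vertical axis starting at 0, a point for each library numbered by its replicate, a black line at the mean of 6 libraries and a bar for the SD. The P9 libraries lie above all P3 libraries for every marker but Nefm, Onecut1 and Onecut2; for Nefm only P9 replicate 3 (73.4 CPM) reaches into the P3 range.

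The 3 neurofilament genes rose together but by unequal amounts. Nefl (ENSMUSG00000022055.7, chromosome 14, 68083863 to 68089095 in GRCm38), the light subunit on which filaments are built, ran from 80.7 to 113 CPM at P3 with a median of 93.6, and from 113 to 247 CPM at P9 with a median of 197. The highest P3 library (replicate 2, 112.8 CPM) almost met the lowest P9 library (replicate 3, 113.5 CPM), and the ages did not overlap. Means were 94.2 ± 11.2 CPM at P3 and 188 ± 51.4 CPM at P9 (SD, 6 libraries each), a log2 fold change of 0.99 ± 0.16 (SE; adjusted p = 0.000123).

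Nefm (ENSMUSG00000022054.11), the medium subunit, lies beside Nefl on chromosome 14 (68119545 to 68125004). Its levels were 66.3 to 83.0 CPM at P3 (median 69.8) and 73.4 to 163 CPM at P9 (median 128). Only P9 replicate 3 fell within the P3 range, and the other 5 P9 libraries stood above it. The log2 fold change was 0.78 ± 0.15 (SE; adjusted p = 0.000685), the smallest of the 3 subunits. In 11 of the 12 libraries the expected counts of Nefl and Nefm were both fractional, while their sum was whole in all 12 (within 0.02 counts), so part of their reads had been shared out between these 2 genes by the authors' quantification. Counted as 1 row, an alternative added once the data had been seen, the pair rose by a log2 fold change of 0.90 ± 0.16 (SE; adjusted p = 0.000234).

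Nefh (ENSMUSG00000020396.8, chromosome 11, 4938754 to 4948064), the heavy subunit with the long phosphorylated tail that spaces filaments apart, rose most. It stood between 9.34 and 15.1 CPM at P3 (median 12.5) and between 34.4 and 98.7 CPM at P9 (median 73.1). Every P9 library was above every P3 library, and P9 replicate 3 was again the lowest of its age. Means were 12.5 ± 2.53 CPM at P3 and 71.7 ± 26.8 CPM at P9 (SD, 6 libraries each), and edgeR gave a log2 fold change of 2.52 ± 0.24 (SE) with an adjusted p = 9.01e-07. Ordered by log2 fold change, Nefh was number 334 from the top among the 18638 tested genes. The whole counts of Nefh, from 241 to 3738 per library, carried no fraction shared with another gene.

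The unequal rise was tested on ratios within libraries, where sequencing depth cancels. Gene length cancels only in the difference between the ages, so the log2 ratios themselves are not proportions of the subunits. The log2 ratio of Nefh to Nefl ran from -3.09 to -2.62 at P3 and from -1.71 to -1.17 at P9, without overlap, so that Nefh gained 2.74-fold on Nefl (difference 1.46; exact permutation test over the 12 libraries, two-sided, p = 0.00216, the smallest that 924 assignments allow, adjusted p = 0.00289 over 8 ratios). Against Nefm the gain was 3.20-fold, with log2 ratios of -2.78 to -2.20 at P3 and -1.08 to -0.54 at P9 (exact permutation adjusted p = 0.00289). The ratio of Nefm to Nefl fell by 0.22 on the log2 scale (exact permutation adjusted p = 0.00289). The part of the reads shared out between both genes in that difference was not tested. P3 replicates 4 and 5 had the highest Nefh-to-Nefl ratios of their age (-2.67 and -2.62); without them the difference between ages was 1.57.

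**Figure D2:**
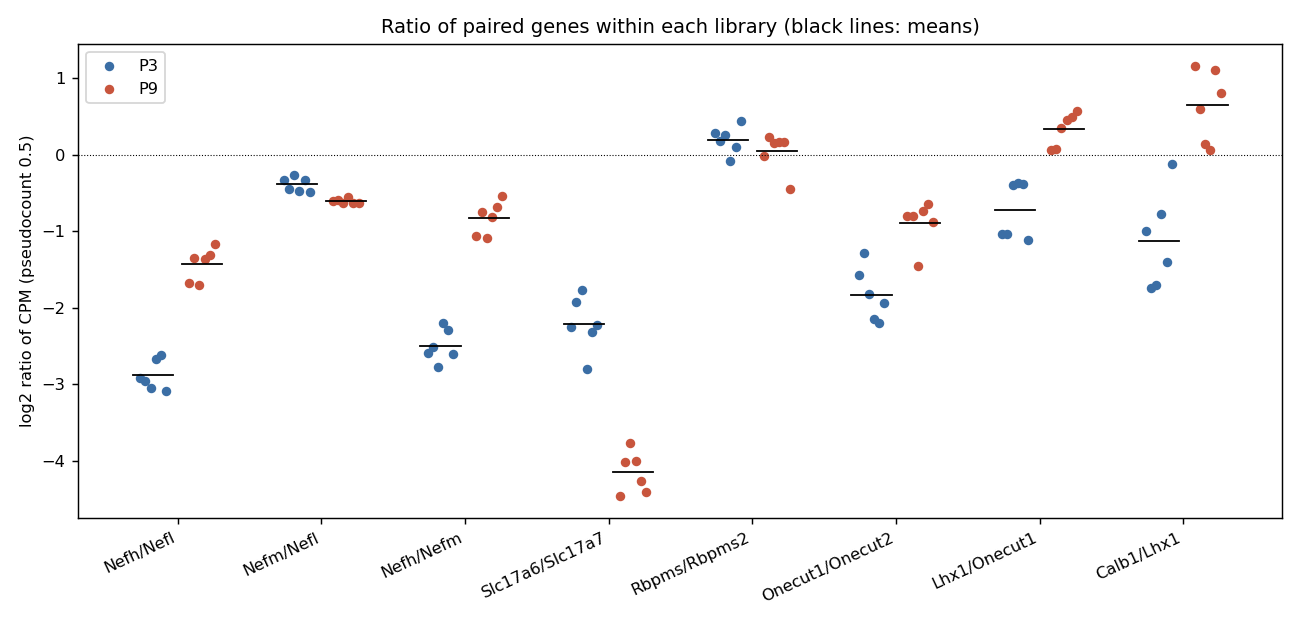
The log2 ratio of CPM (pseudocount 0.5) of 8 gene pairs is plotted for each library, P3 in blue and P9 in red, with black lines at the means of 6 libraries. The ratios of Nefh to Nefl and to Nefm rise without overlap between ages, Slc17a6 to Slc17a7 drops from a mean of -2.21 to -4.15, and Rbpms to Rbpms2 overlaps.

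Other intermediate filament genes went both ways. Of 10 tested, 2 rose, 4 fell and 4 did not pass, with a median log2 fold change of -0.54. The shares over all tested genes were 26.1% rising and 25.6% falling. The 2 that rose were Des (3.86-fold) and Lmna (2.07-fold). Ina, the neuronal partner of the neurofilament triplet, was at 104 ± 7.76 CPM at P3 and 109 ± 4.17 CPM at P9 (SD over 6 libraries). Its log2 fold change of 0.076 had a 95% interval of -0.063 to 0.21, and it did not pass. The nuclear lamin genes Lmnb1 and Lmnb2 were 2.47-fold and 1.84-fold lower at P9, and Synm, which encodes synemin, was 2.98-fold lower. Vim, the vimentin of glia and vessels, was at 287 and 286 CPM on average. Ina, Vim, Des and Lmna were picked with their values in view. So were all genes of the fixed lists that are named for having failed the test.

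Among genes of the axon cytoskeleton and of axonal transport, 8 of 16 rose, none fell and 8 did not pass. Of all tested genes 51.8% were called, 26.1% rising and 25.6% falling. Neurofascin (Nfasc), which anchors the axon initial segment and nodes, rose 3.08-fold from 109 ± 17.1 at P3 to 336 ± 70.7 CPM at P9 (SD over 6 libraries; adjusted p = 4.63e-07). Map2, a microtubule-associated protein of dendrites, rose 2.04-fold, and Kif5c, a motor that carries cargo along axons, 1.39-fold. The median log2 fold change of the list was 0.18, against 0.99 over the 3 neurofilament genes. These genes are expressed by many kinds of neuron.

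Thy1 (ENSMUSG00000032011.5, chromosome 9, 44043384 to 44048579), a small surface glycoprotein whose promoter is widely used to label ganglion cells, was between 12.5 and 18.2 CPM at P3 (median 16.1) and between 26.7 and 52.8 CPM at P9 (median 42.0). The ages did not overlap, and P9 replicates 2, 3 and 4 were lower than P9 replicates 1, 5 and 6. Means were 15.7 ± 1.86 CPM at P3 and 41.3 ± 10.5 CPM at P9 (SD, 6 libraries each), and edgeR gave a log2 fold change of 1.39 ± 0.16 (SE) with an adjusted p = 4.13e-06. T cells and fibroblasts also carry Thy1, and their part in its level was not tested. Of 5 T cell markers, Cd3d was at 0 in all 12 libraries and Cd3e and Cd3g were each at 0 in 11, of the 2 that were tested 1 rose and 1 fell, and the summed CPM of the 5 was 3.41 to 6.35 at P3 and 2.46 to 4.02 at P9. Of 5 fibroblast markers 1 fell and 4 did not pass, and over all tested genes 26.1% rose and 25.6% fell. The fibroblast sum was 17.9 to 415 CPM at P3 and 54.2 to 120 CPM at P9. Its highest value was in P3 replicate 1, where Thy1 was also the highest of its age. At P9 the sum was highest in replicate 3 (120 CPM), where Thy1 was the lowest of its age (26.7 CPM).

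Slc17a6 (ENSMUSG00000030500.6, chromosome 7, 51621830 to 51671126) encodes the vesicular glutamate transporter VGLUT2, which loads glutamate into the synaptic vesicles of ganglion cells. It ran from 13.0 to 19.2 CPM at P3 (median 17.5) and from 26.7 to 36.5 CPM at P9 (median 32.1), with all P9 libraries above all P3 libraries. The log2 fold change was 0.91 ± 0.11 (SE; adjusted p = 1.10e-05). The other vesicular transporters on the list, 4 in all, rose as well, where 26.1% of all tested genes rose. Slc17a7, the VGLUT1 of photoreceptors and bipolar cells, went from 81.8 ± 21.4 at P3 to 586 ± 151 CPM at P9 (SD over 6 libraries), Slc17a8, the VGLUT3 of some amacrine cells, rose 4.37-fold and Slc32a1, the GABA and glycine transporter, 1.95-fold. Within libraries Slc17a6 lost ground to Slc17a7 by 3.83-fold (difference of log2 ratios -1.94; exact permutation adjusted p = 0.00289). The markers of both cell types that use Slc17a7 rose in the same libraries. The rod list went from a summed 1283 to 2831 CPM at P3 to 7532 to 15833 CPM at P9. The bipolar list went from 82.5 to 107 CPM at P3 to 1024 to 1885 CPM at P9. Their part in the rise of Slc17a7 was not tested.

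Rbpms (ENSMUSG00000031586.16, chromosome 8, 33782643 to 33929922), an RNA-binding protein used to count ganglion cells, changed least among the markers that rose. It was between 23.0 and 27.0 CPM at P3 (median 25.9) and between 29.7 and 38.1 CPM at P9 (median 33.4), narrow ranges that did not overlap. The log2 fold change was 0.39 ± 0.083 (SE; adjusted p = 0.00112). Its relative Rbpms2 rose 1.46-fold (adjusted p = 0.000217), and the ratio of the pair did not differ past the threshold (difference -0.15; exact permutation p = 0.279, adjusted p = 0.279). Rbpms is also made by contractile vascular cells. Of 6 tested smooth muscle markers 5 rose and 1 did not pass, where 26.1% of all tested genes rose. The smooth muscle sum (7 genes, with Cnn1 at 0 in 4 libraries) lay between 111 and 213 CPM at P3 and between 330 and 448 CPM at P9. The part of smooth muscle in the level of Rbpms was not tested.

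Further ganglion cell genes were counted by role. Of 14 effector genes, 8 rose, 1 fell and 5 did not pass, with a median log2 fold change of 0.42. Of 18 fate factors, 3 rose, 9 fell and 6 did not pass, with a median of -0.36. Over all tested genes 26.1% rose and 25.6% fell, and the difference between the 2 lists was not tested. Among effectors, Cartpt, a neuropeptide precursor made by a class of direction-selective ganglion cells, rose 9.10-fold from 0.599 ± 0.314 at P3 to 5.50 ± 1.37 CPM at P9 (SD over 6 libraries), and Chrna6, a nicotinic receptor subunit, 2.69-fold to 32.6 ± 7.79 CPM. Among fate factors, the LIM factor Isl1, which is shared with bipolar, amacrine and young horizontal cells, rose 6.02-fold from 35.9 ± 5.50 to 216 ± 28.0 CPM. Sox11, a factor of newly born neurons, was 5.04-fold lower and Eomes, which marks a subset of ganglion cells including the light-sensitive ones, 2.08-fold lower at P9. The Pou4f factors that define ganglion cells were detected in every library. Pou4f1 went from 21.3 ± 1.52 to 17.1 ± 3.39 CPM (adjusted p = 0.0455). Pou4f2 and Pou4f3 did not pass, with log2 fold changes of -0.25 (95% interval -0.54 to 0.031, adjusted p = 0.126) and 0.46 (95% interval -0.27 to 1.19, adjusted p = 0.278). Atoh7, needed to make ganglion cells and active in progenitors, went from 5.44 ± 1.38 to 0.640 ± 0.325 CPM (adjusted p = 5.17e-06). The Pou4f genes and Atoh7 were picked with their values in view.

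**Figure D3:**
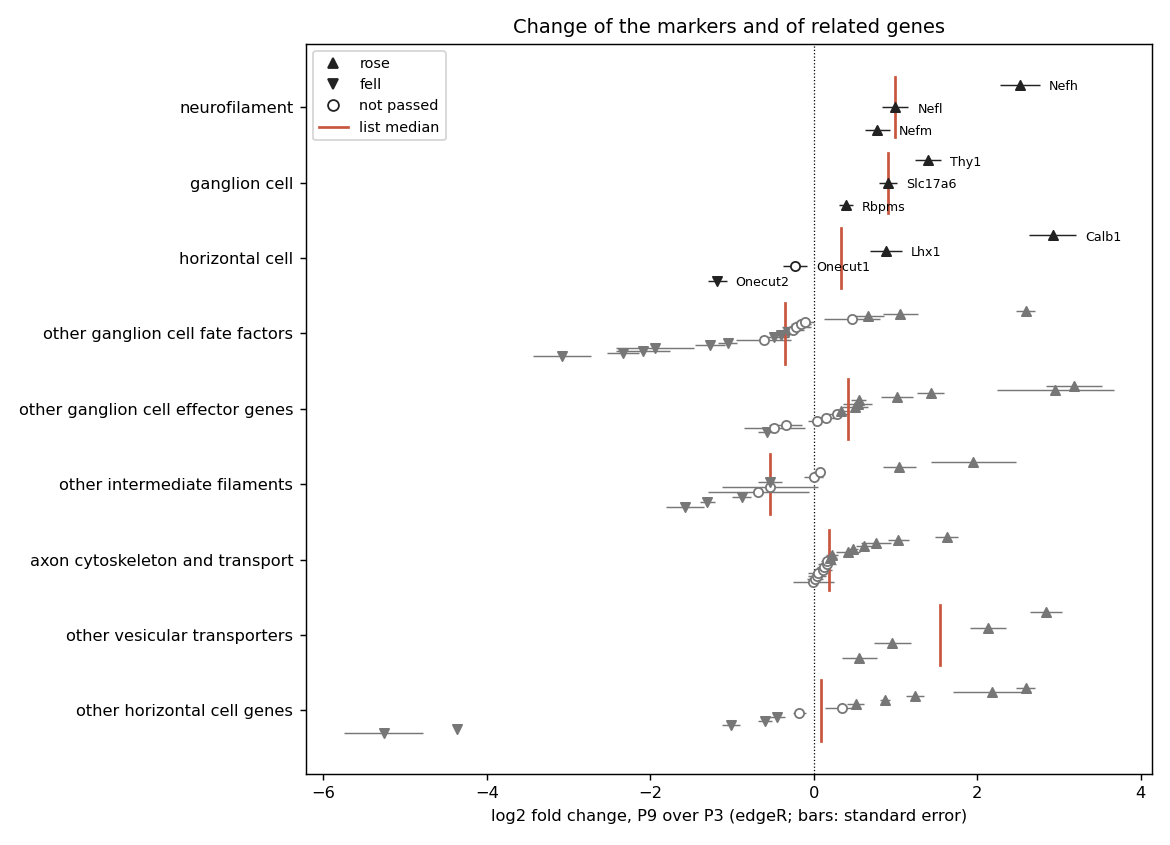
The log2 fold change of P9 over P3 is shown for each marker (black, named) and for each tested gene of the related lists (grey), with standard errors as bars, triangles for genes that rose or fell, open circles for those that did not pass and a red line at each list's median. Ptf1a, at 0 in every P9 library, is drawn at its bound of -4.37 without a bar. All 6 ganglion side markers lie to the right of 0, while the horizontal cell markers lie on both sides.

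Promoter sequence was at hand for 3 of the 10 markers (RefSeq, GRCm38.p6), and it is shown because these genes took different courses: Slc17a6 and Lhx1 rose by nearly the same factor (1.87-fold and 1.85-fold) and Onecut1 did not pass. Each run gives, 5′ to 3′ on the strand of the gene, the 250 bases before the start: chr7:51621580-51621829 (plus strand) for Slc17a6, chr11:84525535-84525784 (minus strand) for Lhx1 and chr9:74861671-74861920 (plus strand) for Onecut1. Capitals mark every match, on either strand, to the GC box with the letters GGGCGG, the promoter box named for its letters CCAAT, the half-site TGACG of the cAMP response element or the homeodomain core TAATTA; no matches overlapped in these runs.
Slc17a6: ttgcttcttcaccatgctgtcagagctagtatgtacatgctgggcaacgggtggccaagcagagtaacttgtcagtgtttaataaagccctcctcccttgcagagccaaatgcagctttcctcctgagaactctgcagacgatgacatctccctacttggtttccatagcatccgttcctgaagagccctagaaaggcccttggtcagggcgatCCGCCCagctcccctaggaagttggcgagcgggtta
Lhx1: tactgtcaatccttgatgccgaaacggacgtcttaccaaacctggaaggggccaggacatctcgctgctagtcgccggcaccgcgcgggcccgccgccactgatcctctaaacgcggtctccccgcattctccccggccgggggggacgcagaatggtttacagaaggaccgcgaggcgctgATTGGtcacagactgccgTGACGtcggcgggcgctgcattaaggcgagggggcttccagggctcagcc
Onecut1: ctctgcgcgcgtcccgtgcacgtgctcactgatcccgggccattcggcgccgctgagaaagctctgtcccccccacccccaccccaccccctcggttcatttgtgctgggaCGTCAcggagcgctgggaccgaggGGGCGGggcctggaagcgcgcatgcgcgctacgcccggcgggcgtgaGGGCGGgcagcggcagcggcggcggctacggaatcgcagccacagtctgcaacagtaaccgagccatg
The Slc17a6 run held 1 GC box, that of Lhx1 1 CCAAT box and 1 half-site, and that of Onecut1 2 GC boxes and 1 half-site. Among 32851 such windows, 32.7% held a GC box, 33.8% a CCAAT box, 17.8% the half-site and 4.84% the homeodomain core, so none of these matches is unusual. The Onecut1 and Lhx1 windows were rich in CG pairs, with 31 and 26 against 7 in the Slc17a6 window and a median of 6.0 over all windows. A second Slc17a6 start in the same table (chr7:51624387-51624636) had 3 CG pairs, 1 half-site and 1 homeodomain core.

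Calb1 (ENSMUSG00000028222.2, chromosome 4, 15881264 to 15906709) encodes calbindin, a calcium buffer that fills horizontal cells and also some amacrine and ganglion cells. It was low at P3, from 1.21 to 3.01 CPM (median 2.24), and ran from 8.64 to 27.3 CPM at P9 (median 16.9). No P9 library came near the P3 range, although the P9 libraries differed among themselves by over 3-fold, with replicate 3 lowest and replicate 5 highest. The log2 fold change of 2.92 ± 0.29 (SE; adjusted p = 1.21e-06) was the largest of the 10 markers, number 202 from the top among all tested genes. Its fold change was imprecise, with a 95% interval of 4.94-fold to 11.6-fold. The P3 libraries held as few as 34 counts of Calb1. As a share of the mean, the SD was 29.8% at P3 and 40.4% at P9.

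Lhx1 (ENSMUSG00000018698.15, chromosome 11, 84517975 to 84525534), the LIM factor that places horizontal cells in their layer, was between 3.31 and 7.21 CPM at P3 (median 5.24) and between 7.77 and 12.3 CPM at P9 (median 10.1). The gap between the ages was narrow, from P3 replicate 3 at 7.21 to P9 replicate 3 at 7.77 CPM, but no values overlapped. The log2 fold change was 0.89 ± 0.19 (SE; adjusted p = 0.00143). Calb1 gained 3.42-fold on Lhx1 (log2 ratio -1.75 to -0.12 at P3 and 0.060 to 1.17 at P9; exact permutation adjusted p = 0.00289). The 2 markers of mature horizontal cells that rose therefore did so unequally. The pseudocount of 0.5 CPM is large beside Calb1 at P3 (1.21 to 3.01 CPM) and makes its gain on Lhx1 smaller. The edgeR log2 fold changes, without that pseudocount, were 2.92 for Calb1 and 0.89 for Lhx1.

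The Onecut genes, which encode homeodomain factors that act early in horizontal and ganglion cells, did not rise. Onecut2 (ENSMUSG00000045991.18, chromosome 18, 64340032 to 64398488) ran from 28.3 to 45.3 CPM at P3 (median 31.5) and from 13.4 to 17.3 CPM at P9 (median 14.5). Every P9 library was below every P3 library, and P3 replicate 5 was the highest. Means were 33.8 ± 6.09 CPM at P3 and 14.9 ± 1.52 CPM at P9 (SD, 6 libraries each), and edgeR gave a log2 fold change of -1.18 ± 0.12 (SE) with an adjusted p = 1.16e-06. Onecut1 (ENSMUSG00000043013.10, chromosome 9, 74861921 to 74889648) was between 6.86 and 11.3 CPM at P3 (median 9.55) and between 5.99 and 8.85 CPM at P9 (median 7.88). Its ages overlapped, and the log2 fold change of -0.23 ± 0.14 (SE; adjusted p = 0.205) had a 95% interval of -0.54 to 0.082, or 0.689-fold to 1.06-fold. Onecut1 gained 1.92-fold on Onecut2 (exact permutation p = 0.00433, adjusted p = 0.00495) with overlapping libraries, and Lhx1 gained 2.08-fold on Onecut1 (exact permutation adjusted p = 0.00289) with none.

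Further horizontal cell genes were likewise divided, with 5 of 12 tested rising, 5 falling and 2 not passing and a median log2 fold change of 0.086. Over all tested genes, 26.1% rose and 25.6% fell. Lhx5 was too low to be tested. Prox1, a factor kept by mature horizontal, amacrine and bipolar cells, rose 2.36-fold to 426 ± 50.3 CPM (SD over 6 libraries), and Sept4, a septin, 1.82-fold to 210 ± 10.4 CPM. Isl1 stands on this list too. The 2 genes that start horizontal and amacrine fates in progenitors were both lower at P9: Foxn4 went from 46.5 ± 18.5 to 1.20 ± 1.06 CPM (adjusted p = 5.98e-07), and Ptf1a from 1.78 ± 0.952 CPM to 0 in all 6 P9 libraries, at least 20.6-fold lower against a floor of 3 counts per library (adjusted p = 6.62e-06). Both were picked with their values in view. Retinal progenitor markers fell in the same libraries, 10 of 11, from a summed 2297 to 6806 CPM at P3 to 951 to 1182 CPM at P9; their part in the fall of Foxn4, Ptf1a and Onecut2 was not tested.

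**Figure D4:**
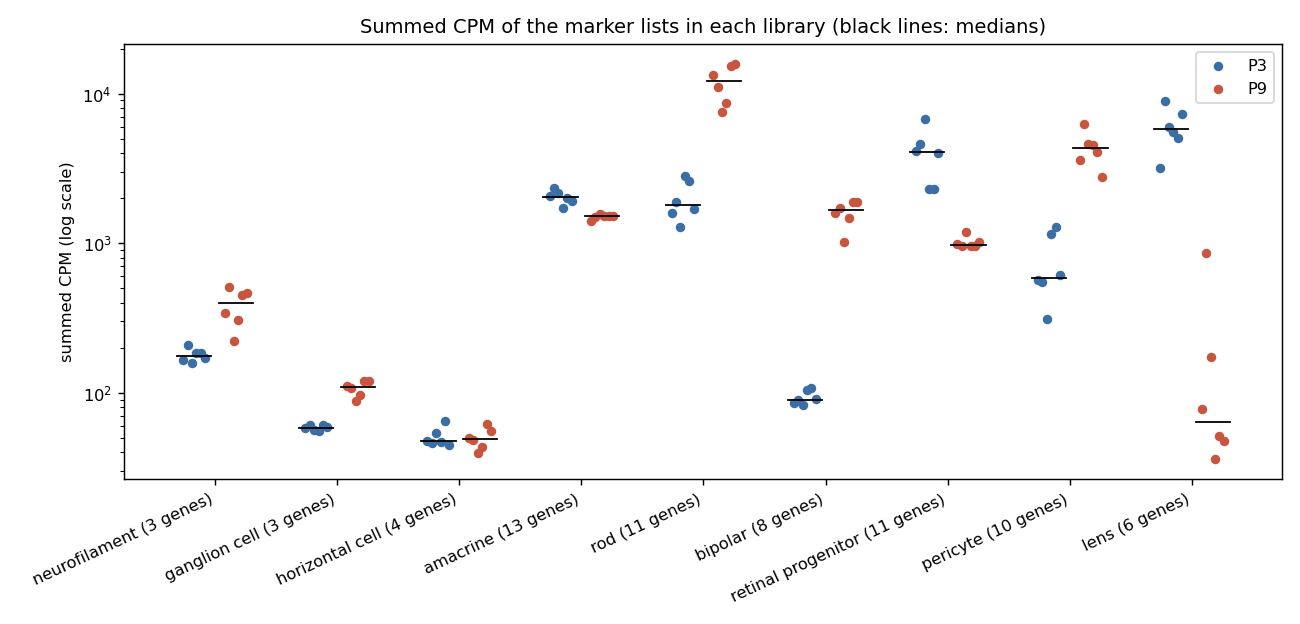
The summed CPM of 9 marker lists is plotted on a log axis for every library, P3 in blue and P9 in red, with black lines at the medians; lists differ in size and their levels are not cell numbers. Neurofilament and ganglion cell sums lie higher at P9 without overlap, the horizontal cell sum overlaps, amacrine, progenitor and lens sums lie lower, and rod, bipolar and pericyte sums lie higher.

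Summed by role, the 3 neurofilament genes went from 157 to 210 CPM at P3 to 221 to 508 CPM at P9 and the 3 ganglion cell genes from 55.4 to 60.6 CPM to 88.5 to 119 CPM. The 4 horizontal cell genes covered 45.0 to 64.4 CPM and 39.7 to 61.8 CPM, the fall of Onecut2 offsetting the rise of Calb1 and Lhx1 in the sum. Amacrine cells, the closest neighbours of both cell types, had 4 of 13 tested markers rising, 5 falling and 4 not passing. The shares over all tested genes were 26.1% rising and 25.6% falling. The amacrine sum was 1727 to 2340 CPM at P3 and 1409 to 1556 CPM at P9. That sum leans on Pax6, its most abundant gene at P3, which went from 752 ± 149 to 352 ± 30.2 CPM (SD over 6 libraries). The 4 amacrine markers that rose were Gad1, Slc32a1, Calb2 and Slc18a3. No test compared the lists. All 6 genes of a lens marker list fell, from a summed 3184 to 8893 CPM at P3 to 35.9 to 864 CPM at P9, and their part in the markers' changes was not tested.

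Libraries of an age also differed in the markers. At P9, replicate 3 was the lowest library of its age for 8 of the 10 markers, all but Rbpms and Onecut2; it lay 0.95 below the P9 mean on the log2 scale for Nefh, 0.84 for Calb1 and 0.67 for Nefl, and 0.22 above it for Onecut2. P9 replicates 5 and 6 were above the P9 mean for 9 markers each. Replicate 3 also had the lowest rod (7532 CPM) and bipolar (1024 CPM) sums of its age and the highest progenitor sum (1182 CPM), but not the lowest pericyte sum, which was that of replicate 6 (2781 CPM). At P3, replicates 4 and 5 had the highest Nefh (15.1 and 15.0 CPM) but not the highest Nefl, Thy1 or Calb1. Replicates 4 and 5 also had the highest rod sums (2831 and 2621 CPM) and the lowest progenitor sums of their age. Their pericyte sums (1145 and 1286 CPM) and smooth muscle sums (213 and 192 CPM) were likewise the highest at P3. Which of these sums went with Nefh was not tested. Without P9 replicate 3 the log2 fold change was 2.66 for Nefh, 1.10 for Nefl and -0.16 for Onecut1, and without P3 replicates 4 and 5 it was 2.68, 1.01 and -0.30. The same numbers of markers rose and fell without P9 replicate 3 and P3 replicates 4 and 5 together (8 and 1), an alternative added once the data had been seen.

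**Figure D5:**
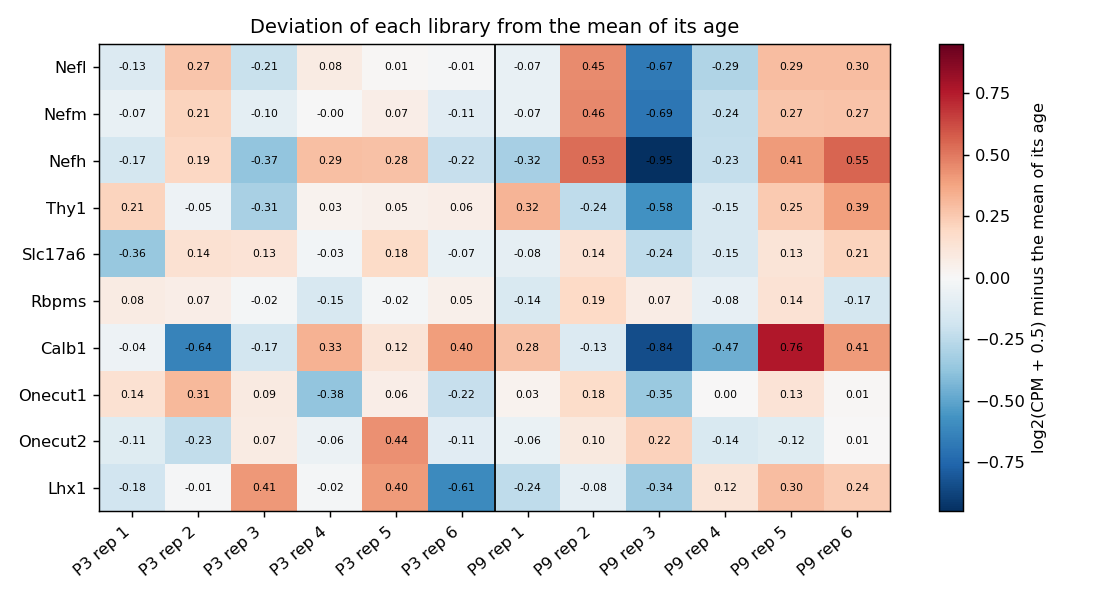
Each cell gives log2(CPM + 0.5) of a marker in a library minus the mean of its age, in red above and in blue below that mean, with P3 to the left of the line and P9 to the right. P9 replicate 3 is blue for 8 of 10 markers, with -0.95 for Nefh, and P9 replicates 5 and 6 are mostly red.

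Genes with the most similar course were sought for each marker by the root mean square difference of log2 CPM over the 12 libraries, each gene centred on its own mean, among 10399 or 10400 tested genes that averaged 10 CPM or more and did not have a provisional name. Nefl and Nefm were each other's nearest gene (0.13), followed by Garem1 and Rasgef1a for Nefl (0.13 each) and by Slc6a6 and Rasgef1a for Nefm. Part of the reads of Nefl and Nefm had been shared out between them by the quantification. The part of that sharing in their nearness was not tested. Nefh was nearest to Psd2 (0.23), Faim2 and Mpp4, and 153 of the genes compared were at least as near to it as the closest other marker, Calb1 (0.51). Thy1 was nearest to Sgsh (0.15), Acadvl and Guk1, Slc17a6 to Ext1 (0.094), Ppm1e and Dzank1, and Rbpms to Srsf12 (0.078), Ttpal and Mgat4a. Calb1 was nearest to Arl4d (0.29), Kcne2 and Car8, and Lhx1 to Slc6a17 (0.19), Mfsd6 and Plek. Onecut1 lay nearest to Igsf9b (0.12), Uspl1 and Zfhx2, and Onecut2 to Numa1 (0.14), Tle3 and Vangl2. Apart from the Nefl and Nefm pair, no marker had another marker among its 3 nearest genes.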

How the data were processed

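Each library has a deposited table of expected counts by gene, unscaled for depth, in which 15.9% of values have a fraction. The tools listed, per the submitters' processing notes, are STAR, RSEM, Trim Galore, FastQC and limma, and the build is mm10; their versions and roles, and the annotation, were not given in the sources used here. No row lacked a name; of the 240 repeated symbols the most abundant row was used. Groups follow the age label; replicates are numbered in deposition order. The labels of P9 replicates 5 and 6 carry crossed names, both P9.

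Expected counts were rounded, filtered with filterByExpr (18638 genes kept, 34452 removed), scaled by TMM and fitted in edgeR 4.0.16 (R 4.3.3) by quasi-likelihood. The p-values were adjusted by Benjamini-Hochberg over every gene that was tested. SE is the log2 fold change divided by the square root of F. Ratios used log2 of CPM with a pseudocount of 0.5 and exact two-sided permutation tests, adjusted over 8 ratios. Transcript lengths were not used, so levels are not compared between genes. Coordinates are RefSeq's on GRCm38.p6, matched by symbol.

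All markers are named; from each related list the 3 called genes with the smallest adjusted p, and 3 nearest genes per marker. Members and lists were chosen with earlier results of these data known. The edgeR test was also run on simulated counts in which far fewer genes changed than were called here. That run therefore adds no weight to the calls. Alternatives were other scaling factors, filters, DESeq2 1.42.0, limma-voom (limma 3.58.1), a robust fit, a threshold of 0.01, other pseudocounts and left-out libraries.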

Additional observations from a re-analysis of the deposited data

Results flagged for a closer look

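In 3 of 36 groups of 6 values (10 markers and 8 ratios at 2 ages) 1 library stood apart, its gap to the next, as a share of the range, being over Dixon's 95% critical value; chance alone gives about 1 in 20. Onecut1 was at 5.99 CPM in P9 replicate 3, against 7.79 to 8.85 CPM in the other P9 libraries. The log2 ratio of Onecut1 to Onecut2 was -1.46 in the same library, against -0.88 to -0.64. The log2 ratio of Rbpms to Rbpms2 was -0.44 in P9 replicate 6, against -0.012 to 0.23.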

How the results depend on the processing

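Of 519 values recomputed for 25 results under the alternatives, 516 kept their direction and their side of the threshold, or, for counts, stayed within 1.5 times. The marker count ran from 7 to 9, with 7 where a mean of at least 10 CPM left 7 markers to test. The other 3 were counts of related lists that moved. With a mean of at least 10 CPM, 7 fate factors of 11 tested and 2 vesicular transporters of 2 tested were called, since fewer genes were tested, and at an adjusted p under 0.01, 5 axon genes were called. Onecut1 missed the threshold in all 22 alternatives (edgeR, DESeq2 or limma-voom adjusted p of 0.106 to 0.397). Leaving out 1 library at a time, log2 fold changes ran from 2.41 to 2.66 for Nefh, 0.90 to 1.10 for Nefl, 0.68 to 0.89 for Nefm, 2.74 to 3.06 for Calb1 and 0.77 to 0.98 for Lhx1. The weakest call was that of Lhx1 without P9 replicates 5 and 6 (adjusted p = 0.0153 in edgeR; 7.85e-05 to 0.0153 over its alternatives). No paired analysis was possible because replicate numbers follow deposition order and no label links a P3 library to a P9 library. Counts were lowest for Calb1 and Lhx1 at P3, with as few as 34 and 110 per library. The SE of the log2 fold change was largest for Calb1 (0.29) and Nefh (0.24).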

Other observations

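Calb2, the calretinin relative of calbindin in amacrine and ganglion cells, rose from 30.9 ± 6.48 at P3 to 72.4 ± 16.8 CPM at P9 (SD over 6 libraries; 2.34-fold; edgeR adjusted p = 2.64e-05). Of the 2 enzymes that make GABA, Gad1 rose 1.47-fold to 130 ± 12.8 CPM, while Gad2 was 1.90-fold lower at P9, at 23.8 ± 1.66 CPM. Spp1, osteopontin, used as a marker of alpha ganglion cells, rose from 1.26 ± 1.22 to 9.62 ± 9.44 CPM (edgeR adjusted p = 0.00297), with an SD at P9 close to its mean. These genes were picked with their values in view.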
